A study of Mus musculus with 44 samples.

Results

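The cells described here are the D7 libraries labelled MoAM, a label this field commonly uses for alveolar macrophages that descend from monocytes, and they make up 8 of the 44 libraries of the series. All mice were of genotype Bl6. Young recipients had been given bone marrow from young or from aged donors and, after reconstitution, bleomycin into the trachea at 1 U/kg, so the injury and the young host lung were common to every group and the age of the marrow was the only labelled difference. There were 4 libraries from recipients of young marrow and 4 from recipients of aged marrow, each made from 30000 to 80000 cells sorted from the lung. Neither the ages of the mice nor the sort gates are stated in the labels. The labels do not say whether libraries are separate animals or pools, so the p-values measure the spread between libraries, which may be technical. Bleomycin breaks DNA and injures the alveolar epithelium. Circulating monocytes then enter the airspace and mature into macrophages, which take part in clearance and, through matrix proteins, proteases and growth factors, in the scarring that follows. They come from the donor marrow in such a transplant, whereas endothelium, epithelium and fibroblasts belong to the host.

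The libraries were taken by their place in the count table and not by the header printed above each column. The 44 headers were sorted bytewise and the label of the header at each place of that order was given to the data column at the same place, which puts aged marrow at data columns 29 to 32 and young marrow at data columns 36 to 39. Lineage genes of T cells, resident alveolar macrophages and monocytes went with this order and against the printed headers. The 12 columns highest in T cell markers were all CD25pos or CD25neg libraries by the sorted order and 0 of them by the printed headers. The 13 columns highest in resident alveolar macrophage markers were all AM libraries by the sorted order, against 0 by the printed headers. The 5 highest in monocyte markers were the 5 monocyte libraries, again against 0. These rankings used the mean of log-scaled levels over each list, not the summed CPM. By summed CPM the monocyte list was highest in AM libraries, at 14460 to 16565 CPM at D7 and 7496 to 11632 CPM at D14. The monocyte libraries lay below both, at 2669 to 7348 CPM. The single monocyte gene Ly6c2 did set them apart, at 603 to 1845 CPM against at most 220 CPM in the other populations. Siglecf, a lectin of resident alveolar macrophages, lay at 73.6 to 247 CPM (counts scaled to a common library size) in the 13 AM libraries and at 7.03 to 33 CPM in the 14 MoAM libraries of D7 and D14. The macrophage genes C1qa and Spp1 did not set the MoAM columns apart. C1qa lay at 1498 to 2588 CPM in the 14 MoAM libraries and at 359 to 3417 CPM in the CD25pos libraries. Spp1 read 4331, 4656 and 4443 CPM in the aged CD25pos libraries, above every D7 MoAM library. The T cell, resident macrophage and monocyte genes check the sorted population. They say nothing on the age of the marrow or the replicate number, which rest on the sorted order alone.

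**Figure D1:**
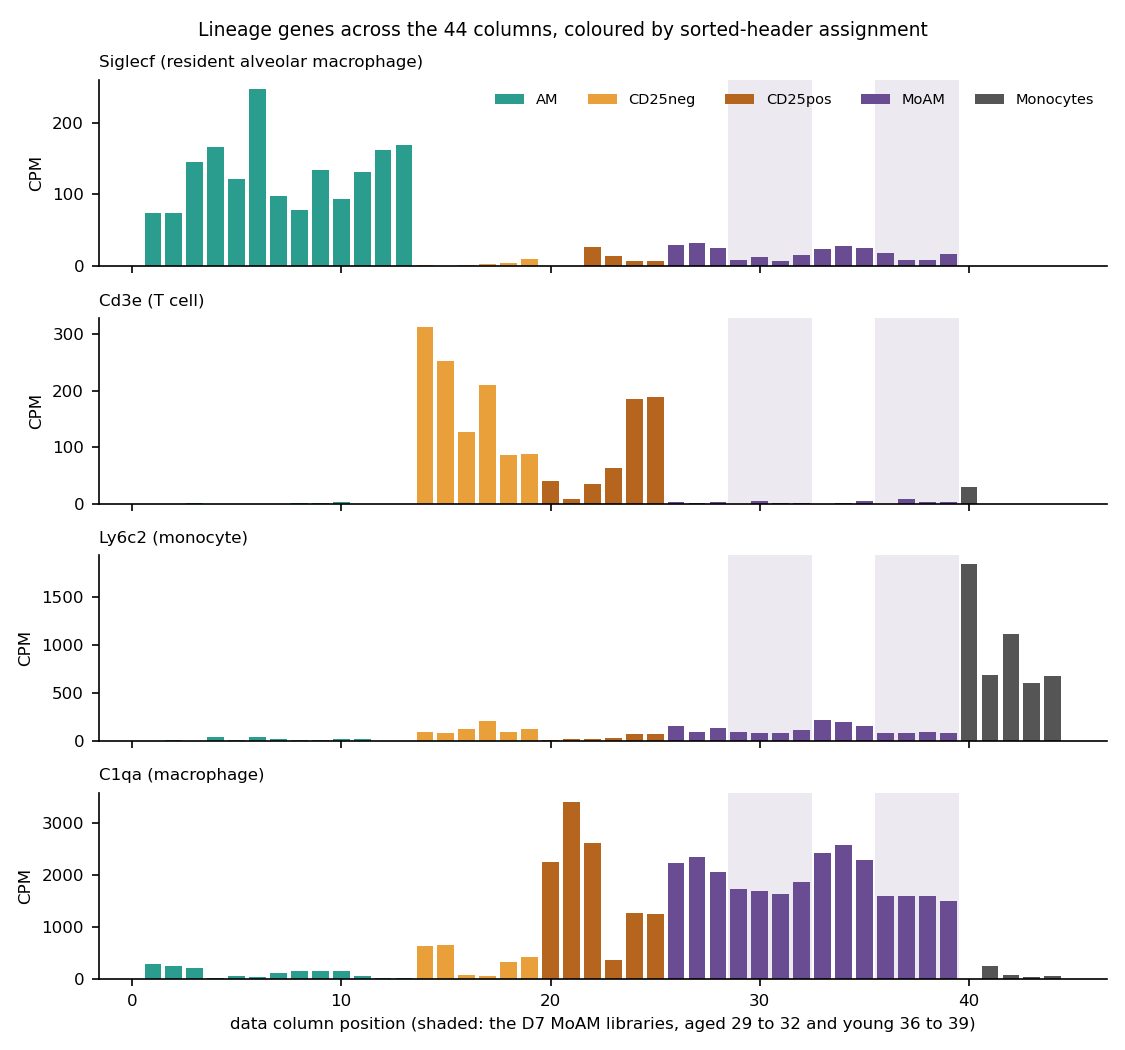
Level (CPM, linear axis) of 4 lineage genes in each of the 44 data columns, in file order and coloured by the population that the sorted headers give. Siglecf is highest in columns 1 to 13 and Ly6c2 in columns 40 to 44. C1qa does not single out the MoAM columns and is highest in column 21, a CD25pos library, at 3417 CPM. Cd3e is high in 11 of columns 14 to 25, while column 21, at 8.51 CPM, is no higher than the highest D7 MoAM column.

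The 8 libraries held 233754 to 3453587 counts, with the second young library the shallowest, and by the sorted order all carry the same sequencing run in their headers. By the headers printed over the columns, 3 of the 4 aged columns carry another run. Of 10690 genes tested, 133 were higher in aged marrow libraries (1.24% of the genes tested) and 61 were lower (0.571%), 194 in all (1.81%), at an adjusted p under 0.05. The median log2 fold change over all tested genes was 0.0070. The macrophage markers C1qa, Lyz2, Mmp12 and Fn1 did not pass the test, and Spp1 did. C1qa, the first chain of complement C1q, read 1641, 1601, 1584 and 1523 CPM with young marrow and 1750, 1712, 1652 and 1942 CPM with aged marrow (adjusted p = 0.49). Lyz2, lysozyme of myeloid cells, had 20865 ± 1394 CPM with young and 20067 ± 815 CPM with aged marrow (SD, n = 4 each, adjusted p = 0.834). All 4 aged libraries lay above all 4 young ones for C1qa, by a margin smaller than the spread within either group, and the groups overlapped for Lyz2, Mmp12 and Fn1. Leaving out young library 3 or young library 4 brought the number of called genes to 109 (81 higher, 28 lower) and 113 (86 higher, 27 lower). Of 70 named genes called, 4 (Ly6c1, Ly6a, Epas1 and Podxl) kept their call under every alternative other than the printed headers. The number of lower genes was 36 without aged library 1 and 96 without young library 2.

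Of all genes tested Ly6c1 had the smallest p. Ly6c1, a surface protein of endothelium and of some leukocytes, read 52.5, 51.1, 74.3 and 75.3 CPM with young marrow and 284, 218, 266 and 248 CPM with aged marrow. Every aged library lay well above every young one, with a log2 fold change of 1.93 ± 0.16 (SE, adjusted p = 3.17e-13). Its near relative Ly6c2, a monocyte gene, was at 85.2 to 97.7 CPM with young and 88.3 to 121 CPM with aged marrow and did not pass the test (adjusted p = 0.802). Reads of such close relatives can be split between them, and how the authors treated reads with several matches is not stated. Ly6a, the stem cell antigen Sca-1, which endothelium also carries, rose 2.61-fold and Epas1, the hypoxia-inducible factor HIF-2 alpha, rose 3.13-fold (adjusted p = 8.62e-11 and 2.65e-11). Both had non-overlapping groups, at 115 to 165 against 334 to 379 CPM for Ly6a and at 51.9 to 85.2 against 192 to 218 CPM for Epas1. Ly6a and Epas1 were chosen for mention after their values were seen.

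The list of 5 endothelial markers held 4 genes that rose and 1, the angiopoietin receptor Tek, that did not pass (adjusted p = 0.746), with a median log2 fold change of 1.26 beside 0.0070 over all genes. Cdh5, the VE-cadherin of endothelial junctions, read 22.9, 21.3, 14.1 and 13 CPM with young marrow and 83.4, 58.7, 77.7 and 68.5 CPM with aged marrow (log2 fold change 2.07 ± 0.27, adjusted p = 2.16e-07). The groups did not overlap for Cdh5, nor for the 3 other markers that rose. Cldn5, the tight junction claudin of endothelium, rose by 1.76 ± 0.24, Pecam1, the adhesion molecule CD31, by 1.26 ± 0.20 and Kdr, the VEGF receptor, by 1.06 ± 0.20 on the log2 scale. Podxl, a sialomucin of the vessel surface, went from 9.08 to 21.5 CPM with young marrow to 68.8 to 97.2 CPM with aged marrow, a 5.30-fold rise (adjusted p = 7.26e-09). Efnb2, the ephrin of arterial endothelium, had 0 counts in the 4 young libraries and 57 counts over the 4 aged ones. Against a floor of 3 counts over the young group that is at least 8.57-fold higher. Lyve1, a hyaluronan receptor found on lymphatic endothelium and on some interstitial macrophages, rose 5.43-fold from 6.34 ± 3.90 to 33.9 ± 9.58 CPM (SD, n = 4 each). It was the single called gene of the 21 tested in the list for interstitial macrophages, whose median was -0.04.

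A longer list of 50 genes known from endothelium, put together after the values were seen, held 36 of the 133 higher genes, with 47 of its members tested and 0 lower. A list of 34 genes known from mesenchyme, put together in the same way, held 20 of the 133, and 77 of the 133 were in neither. Both lists describe the called genes and are no separate evidence. The summed level of the 50 endothelial genes was 990 to 1176 CPM in the young and 2873 to 3125 CPM in the aged libraries.

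Among called genes of at least 10 CPM in a group and without overlap, 113 were higher and 41 lower. Of these, the 15 with the largest change each way were read one by one. The share of all tested genes whose groups did not overlap was not counted. Ecscr, an endothelial regulator of chemotaxis, had 1 count over the 4 young libraries and 68 over the 4 aged ones, a ratio per count total of 30.05 with an exact 95% interval of 5.21 to 1204 for counting error only. Beyond those described elsewhere, the larger fitted rises were 10.3-fold for Mxra8, an adhesion molecule of mesenchyme, 8.96-fold for Tspan18 and 7.92-fold for Afap1l1. Gpihbp1, which holds lipoprotein lipase on capillaries, rose by 2.50 and Sparcl1, a matrix protein of vessels, by 2.39 on the log2 scale. The further rises were 2.55 for Trib2, 2.35 for Slc9a3r2 and 2.33 for Lix1l. Of these, the calls for Ecscr and Tspan18 were lost without young library 3 (adjusted p = 0.0551 and 0.0562), that for Afap1l1 without aged library 3 (0.0536), young library 3 (0.15) or young library 4 (0.0847), that for Gpihbp1 without aged library 4 (0.0511) or young library 3 (0.0747), and that for Lix1l without young library 1 (0.072) or young library 3 (0.11). With limma voom the calls for Tspan18, Trib2, Gpihbp1, Slc9a3r2 and Lix1l were lost (adjusted p 0.0506 to 0.15). All were low beside genes such as C1qa or Lyz2.

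Of the 6 fibroblast markers 4 could be tested and 3 rose, with a median of 2.23. Col3a1, the chain of type III collagen, read 1.34, 0, 4.69 and 1.30 CPM with young marrow and 14.6, 24.6, 15.9 and 22 CPM with aged marrow (log2 fold change 2.96 ± 0.53, adjusted p = 0.000294). Col1a2 and Col1a1, which encode type I collagen, rose by 2.27 ± 0.43 and 2.19 ± 0.55. The Col1a1 groups overlapped and its call was lost without aged library 2 (adjusted p = 0.116), aged library 4 (0.0567), young library 1 (0.09) or young library 4 (0.123). All 3 lost their calls with limma voom (adjusted p 0.112 to 0.18), and Col1a1 also with libraries thinned to equal totals (0.197). The levels themselves were low: the 6 markers summed to 12.8 to 19.1 CPM with young and 49.5 to 104 CPM with aged marrow. Dcn of that list was tested and not called (adjusted p = 0.821), and Pdgfra and Lum were too low to test.

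Of 39 tested genes in the list of matrix proteins and proteases, 6 rose and 3 fell (median 0.03). Those that rose were Col4a1 and Col4a2 of basement membrane collagen, the matrix binder Sparc, the protease Adamts1, the inhibitor Timp3 and Spp1. Sparc went from 45.7, 55.4, 64.1 and 50.6 CPM to 119, 134, 129 and 160 CPM, 2.52-fold (adjusted p = 3.02e-07). Timp3 rose by 1.03 ± 0.20 on the log2 scale, at an adjusted p of 0.0508 without young library 3, and Col4a2 had an adjusted p of 0.0524 to 0.0722 without aged library 1, young library 1 or young library 4. The 3 that fell were the protease Adam8, the metalloproteinase Mmp19 and the transglutaminase Tgm2, all of which macrophages make. Adam8 read 124, 145, 147 and 180 CPM with young marrow and 70.9, 82.7, 80.4 and 91.1 CPM with aged marrow, with no overlap (log2 fold change -0.85 ± 0.15, adjusted p = 0.000266). Mmp19 fell by 0.58 ± 0.14, a call lost without aged library 4 (adjusted p = 0.0511), young library 3 (0.0625) or young library 4 (0.0647). Tgm2 fell by 0.47 ± 0.12, and its adjusted p was 0.0808 to 0.313 without aged library 1, aged library 2, young library 3 or young library 4. Of the 32 tested growth factor and TGF beta pathway genes, Ccn1 and Ccn2, both secreted by mesenchyme and endothelium, rose and 0 fell. Ccn1 lost its call without aged library 1, young library 3 or young library 4 (adjusted p 0.0516 to 0.152). With limma voom Adamts1, Ccn1, Ccn2, Col4a1, Col4a2, Tgm2 and Mmp19 lost their calls (adjusted p 0.0851 to 0.268), and with libraries thinned to equal totals Timp3, Col4a1, Tgm2 and Mmp19 did (0.092 to 0.464). Ccn2 also lost its call in 7 of 8 fits that leave out 1 library, every one but that without young library 2 (adjusted p up to 0.141).

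**Figure D2:**
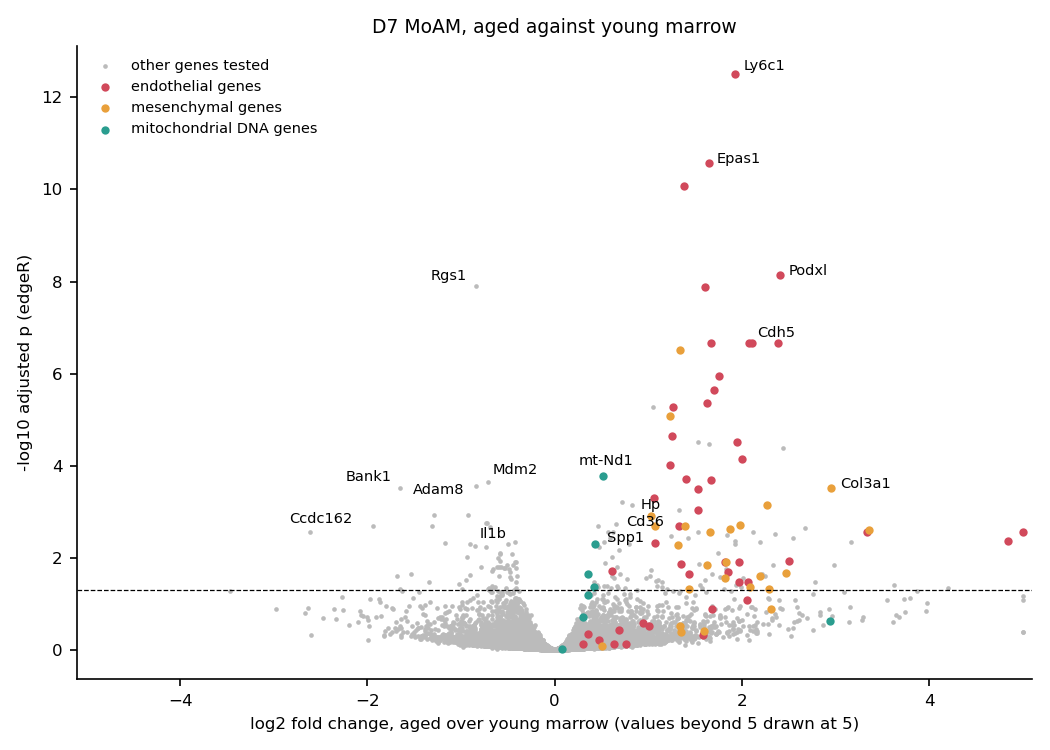
Each point is 1 of 10690 tested genes, with the log2 fold change of aged over young marrow on the horizontal axis and -log10 of the edgeR adjusted p on the vertical axis. The dashed line is the threshold of 0.05, and colours mark the longer endothelial and mesenchymal lists, which were put together after the values were seen, and the mitochondrial DNA genes. The coloured genes above the line lie at positive log2 fold changes, with Ly6c1 at 1.93 topmost.

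Marker sums of several other cell types lay higher in the aged libraries as well, and those of others overlapped. The endothelial markers summed to 129 to 143 CPM with young and 325 to 418 CPM with aged marrow, without overlap. The alveolar epithelial markers summed to 51.1 to 82.7 against 92.8 to 108 CPM, the T cell markers to 128 to 146 against 152 to 169 CPM, the NK cell markers to 0 to 19.7 against 22.8 to 41.2 CPM, and the globin and platelet markers to 561 to 622 against 860 to 1133 CPM, with 0 called members in these 4 lists and no overlap of the sums. Neutrophil markers summed to 1010 to 1761 against 1967 to 2034 CPM, and S100a9 and Retnlg of 5 tested members rose. S100a9, a calcium binder of neutrophils and monocytes, went from 628 ± 150 to 916 ± 42.8 CPM (SD, n = 4 each) but had an adjusted p of 0.057 without young library 1. B cell markers went the other way, at 21.4 to 38.1 CPM with young and 14.4 to 23.7 CPM with aged marrow, with overlap and 0 of 4 tested members called. The eosinophil and mast cell markers summed to 4.28 to 7.95 against 9.46 to 22.7 CPM, without overlap. These sums and those of NK cells lie near the floor and rest on few reads, with 233754 counts in the shallowest young library. The dendritic cell sums overlapped at 116 to 181 against 144 to 194 CPM, those of classical monocytes at 2123 to 2533 against 2184 to 2404 CPM and those of resident alveolar macrophages at 2008 to 2404 against 2110 to 2189 CPM. Elane of the neutrophil list and Prg2, Epx and Mcpt4 of the eosinophil and mast cell list had no count in the 8 libraries. The sums of the 5 macrophage markers overlapped, at 27026 to 28360 and 27151 to 28591 CPM. In bulk libraries a larger number of cells of a type and more RNA per cell cannot be told apart. The part of these other cell types in the gene changes described below was not tested.

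**Figure D3:**
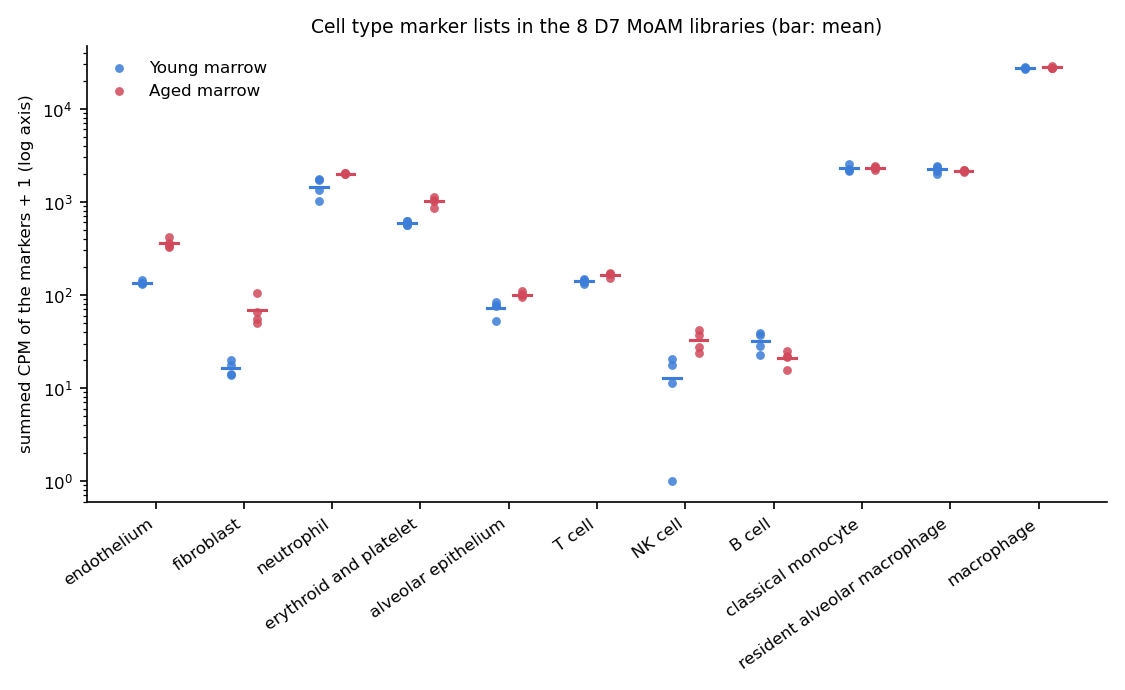
Summed CPM of each marker list plus 1 (log axis) in the 8 D7 MoAM libraries, 1 point per library and a bar at the mean of 4. Endothelial, fibroblast, neutrophil, globin and platelet, epithelial, T cell and NK cell sums lie higher with aged marrow without overlap, and the macrophage sums overlap between 27026 and 28591 CPM.

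Endothelial marker sums also lay higher with aged marrow in other populations sorted at D7. The 5 markers summed to 55.1 to 98.4 CPM with young and 113 to 261 CPM with aged marrow in the AM libraries, to 168 to 238 against 694 to 813 CPM in the CD25pos libraries, and to 178 to 359 against 489 to 513 CPM in the CD25neg libraries. The monocyte libraries overlapped, at 202 to 204 CPM with young and 184 to 513 CPM with aged marrow. At D14 the order was absent in the MoAM libraries, at 188 to 236 CPM with young and 157 to 161 CPM with aged marrow, and the AM groups of D14 overlapped. Since each population has its own control libraries, these are separate measurements, but labels do not say whether they came from the same animals.

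**Figure D4:**
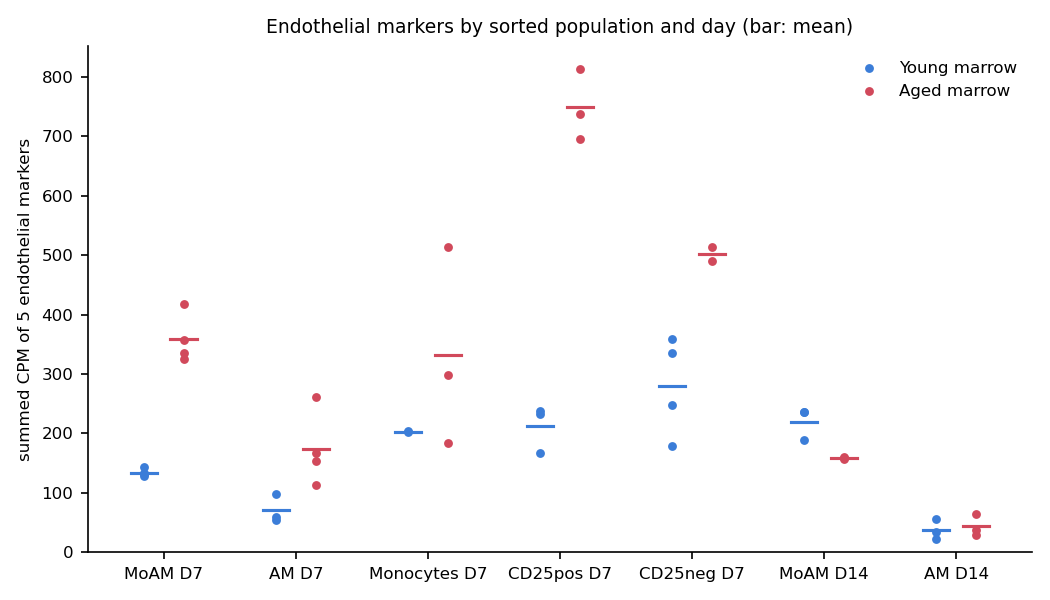
Summed CPM of 5 endothelial markers (linear axis from 0) in each library of each sorted population and day, with a bar at the group mean. With aged marrow the D7 MoAM libraries lie at 325 to 418 CPM against 129 to 143 CPM with young marrow, and at D14 they lie at 157 to 161 CPM, below the young libraries.

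Among genes that macrophages express strongly, Spp1 was higher with aged marrow. Spp1 encodes osteopontin, a secreted matrix protein of profibrotic macrophages. It read 2679, 2853, 2258 and 1743 CPM with young marrow and 3480, 3427, 2855 and 3420 CPM with aged marrow. The lowest aged library stood just above the highest young one in these TMM-scaled values. Scaled to library totals alone the groups overlapped, with aged library 3 at 2841.5 CPM and young library 2 at 2866.3 CPM. The change was 1.39-fold (log2 0.47 ± 0.11, adjusted p = 0.00562), or 0.35 with an adjusted p of 0.0686 without young library 4, the lowest of the 8. Of the 30 tested genes of the profibrotic macrophage list, Spp1 and Cd36 rose, Il1rn fell and 27 were not called, with a median of -0.03. Fn1, fibronectin, had 2361 ± 399 against 2572 ± 110.4 CPM (adjusted p = 0.633), Mmp12, the macrophage elastase, 478 ± 50.3 against 490.4 ± 27.0 CPM (0.944), Trem2 190.3 ± 29.7 against 189 ± 24.1 CPM (0.946), and Gpnmb 473 ± 35.8 against 554 ± 49.7 CPM (0.376; SD, n = 4 each). Arg1, Cd9, Pdgfa, Tgfb1 and Mmp14 did not pass the test either.

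Cd36, the scavenger receptor for oxidised lipid and dying cells, read 175, 119, 177 and 141 CPM with young and 292, 273, 229 and 219 CPM with aged marrow, 1.58-fold and without overlap (adjusted p = 0.00181). The call was lost with limma voom (adjusted p = 0.0653) and with libraries thinned to equal totals (0.127). Endothelium expresses Cd36 too. It was the single called gene of 40 tested in the lysosome and phagocytosis list. In the list for lipid and cholesterol metabolism it rose and the cholesterol exporter Abca1 fell by 0.51 ± 0.13 on the log2 scale, from 239 ± 42.6 to 162 ± 11.1 CPM (adjusted p = 0.0144, or 0.0601 without aged library 3 and 0.0916 with limma voom), and 33 of 35 tested genes were not called.

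Hp, haptoglobin, which monocytes and neutrophils make, went from 60.5, 89.4, 71.9 and 76.6 CPM to 121, 116, 108 and 159 CPM, 1.78-fold (adjusted p = 0.000696). The 3 called genes of 21 tested in the classical monocyte list were Hp, Ly6c1 and Ace, of which the latter pair are also made by endothelium, and the list's median was 0.28. Of the 21, 17 had positive values. The sum of this list lay at 2821 to 3072 CPM with young and 3234 to 3414 CPM with aged marrow, without overlap. The sums of the shorter list of 7 monocyte markers overlapped. Ccr2, the chemokine receptor of recruited monocytes, read 1022 ± 99.8 against 921 ± 52.8 CPM and did not pass (adjusted p = 0.604). The transcription factors Cebpb and Cebpd, which act in myeloid maturation and acute phase responses, rose 1.54-fold and 2.13-fold with overlapping groups. Both were chosen for mention after their values were seen. Cebpd lost its call without aged library 1, 2 or 4 or young library 1 or 3 (adjusted p 0.0526 to 0.278), with limma voom (0.076) and with libraries thinned to equal totals (0.4).

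Transcripts of the mitochondrial genome, which encode subunits of the respiratory chain, were higher with aged marrow. All 8 tested had positive log2 fold changes with a median of 0.39, and 4 rose. mt-Nd1, of complex I, read 10684, 12395, 9052 and 9459 CPM with young and 15852, 14989, 13429 and 15309 CPM with aged marrow, 1.43-fold and without overlap (adjusted p = 0.000161). mt-Nd4 rose by 0.43 ± 0.09, mt-Cytb by 0.36 ± 0.09 and mt-Co1 by 0.43 ± 0.11 on the log2 scale. The call for mt-Nd4 was lost without aged library 1 (adjusted p = 0.0524) and that for mt-Cytb without aged library 1 or 2 or young library 3 or 4 (0.0871 to 0.117). That for mt-Co1 was lost in 7 of 8 such fits, every one but that without young library 2, and with DESeq2 (0.0785), limma voom (0.0851), RLE scaling (0.0559) and library totals alone (0.0534). With libraries thinned to equal totals mt-Cytb had an adjusted p of 0.0663. Mitochondrial transcripts made up 3.11% to 3.91% of counts in the young and 4.18% to 4.83% in the aged libraries. Of 43 tested nuclear genes of oxidative phosphorylation 0 were called by edgeR and the median was 0.03. Over all genes 1.81% were called, so 0 in a list of that size is near the general share. A share of mitochondrial transcripts is also used as a sign of RNA quality or cell damage, and its part here was not tested.

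Of the genes that fell, Rgs1 had the smallest p. Rgs1 limits signalling from chemokine receptors, and it read 1674, 1703, 1489 and 1438 CPM with young and 766, 943, 924 and 876 CPM with aged marrow. The groups were far from overlapping, and the level was 1.78-fold lower with aged marrow (log2 -0.84 ± 0.10, adjusted p = 1.23e-08). Il1b, the inflammatory cytokine interleukin-1 beta, read 2815, 2555, 2614 and 2508 CPM with young and 1948, 1986, 1922 and 1995 CPM with aged marrow. All 4 aged libraries lay close together and below every young one, 1.34-fold lower (log2 -0.42 ± 0.09, adjusted p = 0.00441). It was the single called gene of 29 tested in the list of inflammatory cytokines and chemokines, whose median was -0.08. Il1rn, the antagonist of the same receptor, fell by 0.44 ± 0.12 at an adjusted p of 0.0492 with overlapping groups, and the call was lost without aged library 1, 2 or 3 or young library 1, 3 or 4 (adjusted p 0.0763 to 0.225), with DESeq2 (0.0622), limma voom (0.176), the replicate block (0.0529) and libraries thinned to equal totals (0.595). Tnf read 176 ± 32.1 against 192 ± 24.6 CPM and Il6 19.6 ± 4.36 against 35.5 ± 9.88 CPM (SD, n = 4 each), and neither passed the test (adjusted p = 0.851 and 0.266).

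Promoter sequences are shown for Il1b and Spp1, the cytokine and matrix genes that moved in opposite directions, as the 250 bases before the start in RefSeq's GRCm38.p6 annotation, with matches to the motifs searched in capitals. In the Il1b window on chr2:129371140-129371389, minus strand, the capitals mark a C/EBP match that begins 91 bases before the start. In the Spp1 window on chr5:104434861-104435110, plus strand, the first of 2 starts listed, they mark a PU.1 match 113 bases before the start.
Il1b: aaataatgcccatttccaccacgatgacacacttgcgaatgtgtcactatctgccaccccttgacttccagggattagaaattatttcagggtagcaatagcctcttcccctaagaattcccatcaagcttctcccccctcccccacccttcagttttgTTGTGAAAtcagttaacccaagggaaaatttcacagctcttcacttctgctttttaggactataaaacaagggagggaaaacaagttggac
Spp1: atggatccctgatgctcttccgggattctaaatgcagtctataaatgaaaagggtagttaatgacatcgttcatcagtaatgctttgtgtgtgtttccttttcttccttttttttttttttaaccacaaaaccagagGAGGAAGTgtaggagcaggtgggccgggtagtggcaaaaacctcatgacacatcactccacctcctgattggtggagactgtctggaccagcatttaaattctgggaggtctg
The motifs were C/EBP (TTNCNNAA), PU.1 (GAGGAAGT), AP-1 (TGANTCA) and NF-kB by its consensus, on both strands, where matches of different motifs may overlap. A window of the same length was in the table for 8578 of the 10690 tested genes, for 85 of the 133 higher and 47 of the 61 lower genes. C/EBP was matched in 33% of all, 31.8% of the higher and 42.6% of the lower genes, PU.1 in 3.37%, 4.71% and 6.38%, AP-1 in 5.49%, 5.88% and 2.13%, and NF-kB in 10.6%, 9.41% and 0% of the same sets. A match here is a run of letters in a short window and no measured binding.

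Nfkb1, the p105 and p50 subunit of NF-kB, read 652, 536, 799 and 770 CPM with young and 509, 523, 535 and 493 CPM with aged marrow (log2 -0.44 ± 0.11, adjusted p = 0.0144), and Malt1, a protease that activates NF-kB, fell by 0.45 ± 0.11 (0.00832). Both were chosen for mention after their values were seen. The call for Nfkb1 was lost without young library 3 (adjusted p = 0.148) or young library 4 (0.0877), and that for Malt1 without aged library 4 (0.0511) or young library 3 (0.108). Mdm2, the ubiquitin ligase that holds p53 in check and is itself a p53 target, fell 1.64-fold from 339, 277, 278 and 359 CPM to 211, 196, 208 and 167 CPM (adjusted p = 0.000225). It was the single called gene among 20 tested genes of senescence and p53. Cdkn1a, another p53 target, read 515 ± 49.7 against 558 ± 21.2 CPM (adjusted p = 0.742), and Cdkn2a was below the level of the test at 0 to 3.32 CPM. Csf2rb2, which encodes a beta chain of the interleukin-3 receptor in mice, fell 1.90-fold with no overlap (adjusted p = 0.00115), the single called gene of 32 tested receptors. Csf2rb, its close relative and the shared beta chain for GM-CSF, did not pass (adjusted p = 0.373), and reads of this pair may be split between them. Chst11, a chondroitin sulfotransferase, fell from 151 ± 26.9 to 90.5 ± 8.36 CPM (adjusted p = 0.00177). Ccdc162 had the largest fall among the named genes, from 360, 255, 443 and 542 CPM to 60.5, 77.7, 53.9 and 70.3 CPM (log2 -2.62 ± 0.35, adjusted p = 0.00265). Of the remaining large falls, Slc15a2, a peptide transporter, fell by 1.94, Usp37, a deubiquitinase, by 1.17, and Dgat1, an enzyme of triglyceride synthesis, by 0.79 on the log2 scale, the last with a call lost without aged library 3 (adjusted p = 0.0581) or young library 3 (0.186). Bank1, Ebf1 and Blnk, known best from B cells, fell by 1.65 ± 0.30, 1.31 ± 0.26 and 0.73 ± 0.15. They were the 3 called members of a list of 18 genes known from B cells, put together after the values were seen. Of its 13 tested members 10 were not called and 4 had positive values, with a median of -0.48. Ebf1 overlapped between groups and had an adjusted p of 0.0537 without young library 3. Ebf1 and Blnk were chosen for mention after their values were seen. With libraries thinned to equal totals the calls for Bank1, Blnk, Csf2rb2, Mdm2, Chst11, Nfkb1, Malt1, Usp37 and Dgat1 were lost (adjusted p 0.0625 to 0.398), and with limma voom those for Usp37 and Dgat1 (0.0569 and 0.0851).

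**Figure D5:**
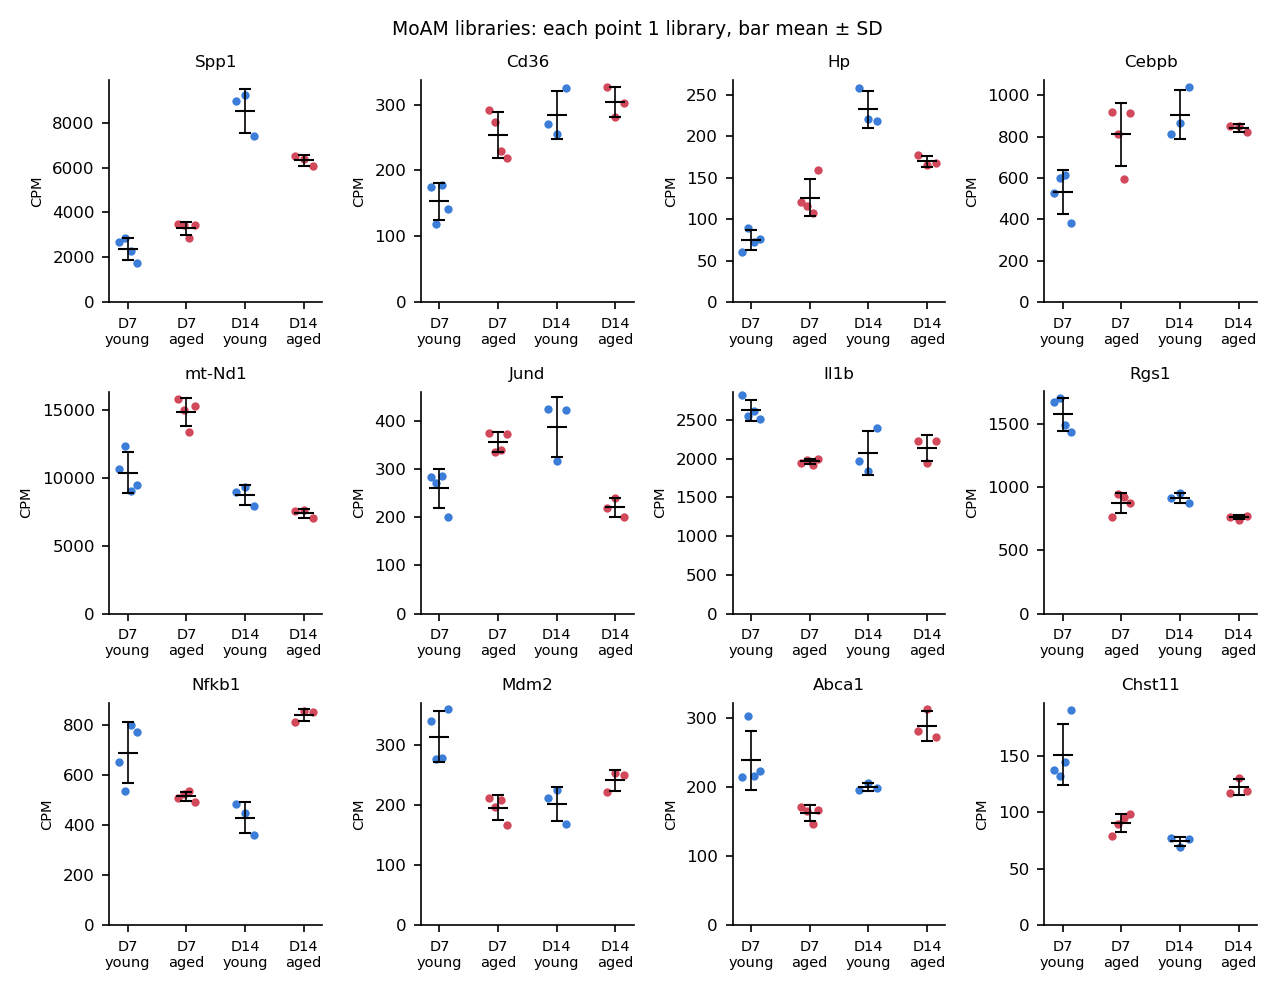
CPM (linear axes from 0) of 12 genes in each MoAM library, with mean and SD, for young (blue) and aged (red) marrow at D7 (4 libraries each) and D14 (3 each). At D7 the aged libraries lie above the young ones for Spp1, Cd36, Hp, mt-Nd1 and Jund and below them for Il1b, Rgs1, Nfkb1, Mdm2, Abca1 and Chst11, while Cebpb overlaps. These values are TMM-scaled, and Spp1 overlaps when scaled to library totals alone. At D14 the change passes the edgeR test in the opposite direction for Spp1, Hp, Jund, Nfkb1, Abca1 and Chst11.

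The programme that marks maturation toward resident alveolar macrophages did not show a called gene by edgeR. Of 21 tested genes in that list 0 were called, with 10 positive values and a median of -0.03. Over all genes 1.81% were called and 1393 had an unadjusted p under 0.05. For a list of this size 0 called genes is near that general share. Siglecf was at 7.82 to 18.8 CPM with young and 7.07 to 15.7 CPM with aged marrow, Pparg, a regulator of that fate, at 25.5 to 56.5 against 29.2 to 48.9 CPM, and Car4 at 47.7 to 102 against 60.9 to 77.5 CPM. MHC class II presentation had 0 of 16 and alternative activation with the interleukin-10 response 0 of 25 called genes, likewise near the general share. H2-Ab1, Mrc1, Il10 and Il10ra were among these, with adjusted p of 0.722, 0.312, 0.8 and 0.224. In the type I interferon list 1 of 41 was called, Ifi27l2a, which fell from 372 ± 27.7 to 248 ± 9.22 CPM (adjusted p = 0.00806, or 0.0515 without young library 4, 0.15 with limma voom and 0.289 with libraries thinned to equal totals). Its members' median was -0.28, with 9 positive values of 41.

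The question of whether the effect of aged marrow lasted was read from the difference of the aged against young change between D7 and D14, in the same fit of 14 MoAM libraries. That difference passed the test for 594 genes (5.56% of those tested), or for 377 without young library 3. At D14, in libraries separate from those of D7, 263 genes were higher (2.46%) and 199 lower (1.86%) with aged marrow. Of the genes called at D7 30 were also called at D14, which is 15.5% of the D7 and 6.49% of the D14 genes. Of the 133 genes higher at D7, 4 were called higher and 11 lower at D14. Of the 61 lower at D7, 14 were called higher and 1 lower at D14. The change in endothelial genes differed between the days, by 2.15 for Ly6c1 (adjusted p = 5.54e-10), 2.42 for Cdh5 (1.73e-06), 2.49 for Cldn5 (2.57e-07) and 1.94 for Kdr (1.2e-06) on the log2 scale.

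Spp1 turned around. At D14 it read 8949, 9232 and 7389 CPM with young and 6535, 6382 and 6056 CPM with aged marrow, a log2 change of -0.43 (adjusted p = 0.0254), and the difference between the days was 0.90 (adjusted p = 0.00014). Hp fell at D14 by 0.45 (adjusted p = 0.041) after its rise at D7, and the difference was 1.28 (2.52e-05). Jund, an AP-1 subunit, was higher at D7 by 0.45 (adjusted p = 0.039, a call lost in 6 of 8 fits that leave out 1 library, those without aged library 1, 2, 3 or 4 or young library 3 or 4, at up to 0.243, and with limma voom at 0.15, library totals alone at 0.0505 and thinned libraries at 0.13) and lower at D14 by 0.81 (1.92e-05). mt-Nd4 and mt-Cytb, higher at D7, were lower with aged marrow at D14 by 0.38 and 0.52 (adjusted p = 0.0277 and 0.00122).

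The genes that fell at D7 also turned in part. Nfkb1 rose at D14 from 482, 448 and 359 CPM with young to 812, 854 and 850 CPM with aged marrow, by 0.97 on the log2 scale (adjusted p = 2.82e-07), and its difference between the days was -1.41 (1.91e-08). Abca1 and Chst11 rose at D14 by 0.53 and 0.72 (adjusted p = 0.00503 and 0.000838), with differences of -1.05 and -1.46. Il1b stood at 1844 to 2389 CPM with young and 1942 to 2234 CPM with aged marrow at D14, a level near that of the aged libraries of D7, and its difference between the days was -0.46 (adjusted p = 0.0333). Rgs1 kept its sign at D14 with -0.26, which did not pass (adjusted p = 0.173), and the difference of -0.57 did (0.0085). The day and the number of libraries differ between these groups, and the D14 libraries were deeper, at 2787165 to 9921734 counts.

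Whether the change was particular to these macrophages was read from the same difference against the AM and monocyte libraries of D7. Against AM it passed for 20 of 10358 genes (0.193%), or for 9 without aged library 2 and 13 without young library 4. Of the genes called in MoAM at D7, 192 were tested here and 3 differed from AM. Those 192 were picked on the same MoAM libraries. Bank1 was lower by 1.65 in MoAM and stood at 2.97 in AM (adjusted p of the difference 0.0269), and Hp was higher by 0.83 in MoAM and by 3.69 in AM (0.00742). Ly6c1, Spp1 and Il1b did not differ between these populations by the test (adjusted p = 1 for each). Their log2 changes in AM were 1.33, 1.58 and -0.30, and the AM libraries of D7 were shallow, at 126283 to 1198138 counts, so p-values of this size do not show that the populations act alike.

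Against monocytes the difference passed for 401 of 10358 genes (3.87%), or for 265 without aged library 2 and 262 without young library 1. Of the 192 tested genes that were called in MoAM at D7, 13 differed from monocytes. Most of the 401 were therefore not among the genes called in MoAM. A difference that did not pass does not show that the populations act alike. Il1b, lower by 0.42 in MoAM, was higher by 1.57 in monocytes (adjusted p of the difference 0.000613), and mt-Nd1, higher by 0.52 in MoAM, was higher by 2.26 in monocytes (1.36e-05). The monocyte groups also differed in general features of the libraries. Lyz2 was at 3714 and 4787 CPM in the 2 young monocyte libraries and at 12185 to 24227 CPM in the 3 aged ones, and mitochondrial transcripts were 0.666% and 0.886% of counts against 3.50% to 4.50%. The part of these in the 401 genes was not tested.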

How the data were processed

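The deposited counts are whole-number reads per gene for 19910 genes in 44 libraries, made by the authors from 3′ end libraries (QuantSeq FWD with a UMI second strand module, per the labels' protocols). Per the submitters' processing notes the tools named include STAR 2.7.9a, with featureCounts, Trim Galore 0.6.6 and Picard, and the builds mm10 and GRCm39 are named without a role. How UMIs, strand and reads with several matches were handled is not given in the sources used here. Libraries were assigned by the order of the sorted headers, as stated above.

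The test was edgeR 4.0.16 (quasi-likelihood, robust, TMM scaling, filterByExpr, Benjamini-Hochberg at 0.05) in R 4.3.3, fitted to the 14 MoAM libraries without covariates, and for the AM and monocyte comparisons to the 20 myeloid libraries of D7. DESeq2 1.42.0, limma 3.58.1 (voom), RLE scaling, library totals alone, no filter, other sets of libraries, the printed headers and each library left out were alternatives, and thinning was added after the data were seen. CPM of single genes is TMM-scaled, and CPM of lineage checks and marker sums is over the library total. Within the young and within the aged D7 MoAM group, no pair of libraries was identical over genes of at least 10 counts. Other pairs were not compared. The script was checked on simulated counts. Of the gene symbols 97.8% were in RefSeq's GRCm38.p6 table. Named genes were up to 15 each way with the largest log2 fold change among called genes that did not overlap and averaged at least 10 CPM in either group, plus listed genes, and predicted genes and the like were not named. The members, the lists and this rule were chosen with earlier results of these data known.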

Additional observations from a re-analysis of the deposited data

Results flagged for a closer look

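Of 207 groups of 4 libraries read for 104 genes, 12 had a library far from the other 3 by Dixon's criterion, and chance gives about 1 in 20. Among young libraries the far values were 1.30 CPM for Ecscr, 8.07 CPM for Afap1l1, 302 CPM for Abca1 and 4.26 CPM for Marco at the high end, and 0 CPM for Mxra8 and 201 CPM for Jund at the low end. Among aged libraries they were 25 CPM for Tspan18, 81.4 CPM for Sparcl1, 2.09 CPM for Marco, 35.5 CPM for Retnla and 42.5 CPM for Ebf1 at the high end, and 2855 CPM for Spp1 at the low end.

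The aged against young log2 change differed between D7 and D14 by the interaction test in 594 genes. The difference, D7 minus D14, was 2.15 for Ly6c1, 2.42 for Cdh5, 2.49 for Cldn5, 1.94 for Kdr, 2.40 for Podxl and 1.37 for Pecam1. It was 0.90 for Spp1, 1.28 for Hp, 1.26 for Jund, 0.76 for mt-Nd1, 0.81 for mt-Nd4 and 0.88 for mt-Cytb. It was -1.46 for Chst11, -2.44 for Bank1, -1.05 for Abca1, -3.87 for Ccdc162, -1.02 for Adam8, -0.97 for Mdm2, -0.46 for Il1b, -0.57 for Rgs1 and -1.41 for Nfkb1.

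The change differed from that in AM of D7 in 20 genes, by -2.91 for Hp and -4.67 for Bank1. It differed from that in monocytes of D7 in 401 genes, by -1.98 for Il1b, -2.32 for Il1rn, 1.13 for Nfkb1, -2.60 for Lyz2, -1.73 for mt-Nd1, -2.51 for mt-Nd4, -2.13 for mt-Cytb and -1.25 for mt-Co1.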

How the results depend on the processing

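Against 194 genes called at D7 (133 higher, 61 lower), DESeq2 called 245 (149 and 96), limma voom 76 (52 and 24) and a fit of all 44 libraries 4 (4 and 0, with 84 lower genes at an unadjusted p under 0.05), where the coefficient of variation between libraries was 46.6% against 16.5% in the 14 MoAM libraries. Thinning to 233754 counts per library, which left 5163 genes to test, gave 50 (39 and 11), of which 48 were among the 194. RLE scaling, library totals alone, no filter and the 8 libraries alone gave 196, 195, 243 and 149. Leaving out 1 library gave 109 to 261 genes (81 to 165 higher, 27 to 96 lower), 377 to 662 for the difference from D14, 9 to 18 for that from AM and 262 to 304 for that from monocytes. The difference from D14 held for 1 gene with all 44 libraries, that from AM for 45 genes with DESeq2, 42 without a filter, 13 with all 44 libraries and 0 with limma voom (429 at an unadjusted p under 0.05), and that from monocytes for 826 with limma voom. The replicate block, in a fit of the 8 libraries, gave 156 genes (106 higher, 50 lower) against 149 without it. Same-numbered libraries deviated together with r of 0.0013, -0.00031, 0.029 and 0.013, so the numbers were not read as pairs, and not every library correlated best with its own number. Of 70 named genes called, 36 were called in each of the 8 fits that leave out 1 library. Of the 70, 4 kept their call under every alternative other than the printed headers. The cause of these changes was not tested.

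With groups taken from the printed headers, edgeR called 0 genes (307 at an unadjusted p under 0.05, 102 higher and 205 lower), 0 for the difference from D14 (621), 349 for that from AM and 0 for that from monocytes (202). Columns of other populations then stand in the groups. Changes of sign were counted for the 70 named genes called in the main fit, not for the other named genes. Of the 70, 47 had the opposite sign, while 0 of those tested did under the other alternatives. Their log2 fold changes by the printed headers were -1.11 for Ecscr, -1.73 for Tspan18, -0.73 for Afap1l1, -0.49 for Col3a1, -0.087 for Adamts1, -2.27 for Trib2, -1.87 for Gpihbp1, -1.05 for Ccn1, -1.46 for Lyve1, -1.47 for Podxl, -1.61 for Sparcl1, -2.06 for Ccn2, 0.71 for Ccdc162, 0.17 for Prpf39, 0.27 for Copg1 and 0.49 for Per2. Further values were 0.90 for Rgs1, 0.036 for Dgat1, -1.13 for Spp1, 0.012 for Il1rn, -1.05 for Ly6c1, -1.16 for Ace, -1.09 for Hp, 0.22 for Il1b, -0.56 for Sparc, -1.59 for Timp3, -1.16 for Col4a1, -0.19 for mt-Nd1, -0.24 for mt-Nd4, -0.059 for mt-Cytb, -0.10 for mt-Co1 and 0.21 for Mdm2. The rest were -1.33 for S100a9, -1.73 for Retnlg, -1.72 for Col1a2, -0.42 for Col1a1, -1.49 for Cdh5, -0.98 for Cldn5, -1.05 for Pecam1, -0.022 for Kdr, -0.16 for Cebpb, -0.48 for Cebpd, 0.049 for Malt1, -1.37 for Ly6a, -0.22 for Epas1, 0.36 for Tgm2 and -0.81 for Col4a2.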

Other observations

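Some programmes of the cell had no called gene by edgeR at D7. There were 0 of 40 tested cell cycle genes, 0 of 74 ribosomal protein genes, 0 of 29 glycolysis and hypoxia genes, 0 of 26 genes of the interferon gamma response, 0 of 23 genes of oxidative stress and iron and 0 of 19 of the unfolded protein response. Their median log2 fold changes lay between -0.07 and 0.07, beside 0.0070 over all genes, of which 1393 had an unadjusted p under 0.05. Over all genes 1.81% were called, so 0 called genes in any 1 list of these sizes is near the general share. Of 30 genes of the immediate early and dissociation response, Jund rose and the phosphatase Dusp2 fell, and 28 were not called. Dusp2 lost its call without aged library 1 (adjusted p = 0.0502), young library 1 (0.0544) or young library 4 (0.112). It also lost it with limma voom (0.0904), the replicate block (0.0598) and libraries thinned to equal totals (0.589).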
